A study of Citrus unshiu with 2 samples.

Results

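Expression of 8 genes of floral signalling and floral identity was compared between 2 RNA-seq libraries of satsuma mandarin (Citrus unshiu) stems, out of 23159 genes measured. The genes were taken by identifier, with the names that the authors' table of differential genes gives them. They are HEADING DATE 3A, FT-interacting protein 1, CAULIFLOWER A, DEFICIENS, AGL6, APETALA 2, SPL13A and UPSTREAM OF FLC. Both libraries came from mature stems of wild-type (WT) trees at day 75, grown under a rain-proof tunnel with confined roots and natural day length. Control trees received normal water, and light drought trees were left to dry to a soil moisture of around 15%. The design set aside 20 trees for each treatment, and each treatment has 1 library. The number of trees per library was not given in the sources used here, and the differences described here have no replicate check.

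Flowering begins when a mobile protein of the FLOWERING LOCUS T (FT) family is made in the phloem of leaves and carried to the shoot apex. There it joins a transcription factor partner and turns on meristem identity genes of the MADS-box family, after which floral organ identity genes are expressed. Age-dependent SPL factors promote this step, and AP2-type factors delay it in Arabidopsis. In citrus trees, cool temperature and water deficit are known to induce flowering. The series was made to compare flowering-related and methylation-related genes under light drought.

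Every one of the 8 genes had a lower level in the light drought library than in the control library, a direction shared by 49.6% of all genes kept and by 55.6% of the kept genes that carry a description. Levels are RPKM, reads scaled to exon length in kilobases and to all reads in genes. Being per length, they can be set side by side between genes as far as the gene models are complete. DEFICIENS was at 20.0% of its control level and AGL6 at 6.27%, while HEADING DATE 3A, FT-interacting protein 1 and CAULIFLOWER A stood between 50.1% and 53.7%. APETALA 2 was at 43.7%, SPL13A at 31.1% and UPSTREAM OF FLC at 29.0%. In stem tissue taken in bulk, fewer cells of a type and less RNA per cell cannot be told apart.

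Genes were counted as lower or higher at 2-fold or more on the scale log2((light drought + 0.5)/(control + 0.5)) of RPKM, provided that RPKM reached 1 in at least one of the libraries. This scale understates the change of low genes. Of the 8 genes 7 met the expression minimum. At least 2-fold lower were 5 of the 8, with or without the minimum, and 0 were at least 2-fold higher. Of all 15654 genes kept, 2.12% were at least 2-fold lower and 0.882% at least 2-fold higher. All 8 names come from a table of 2568 genes that the authors call differential, so a second background is the 1373 kept genes with a RefSeq description in that table. Of these, 14.9% were at least 2-fold lower and 5.39% higher. Below 5 RPKM in both libraries, where DEFICIENS, AGL6, SPL13A and UPSTREAM OF FLC lie, 3.44% of 5026 kept genes were at least 2-fold lower. The median log2 ratio was -1.07 for the 8 genes, -0.20 for the kept genes with a description and 0.0024 for all kept genes.

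**Figure D1:**
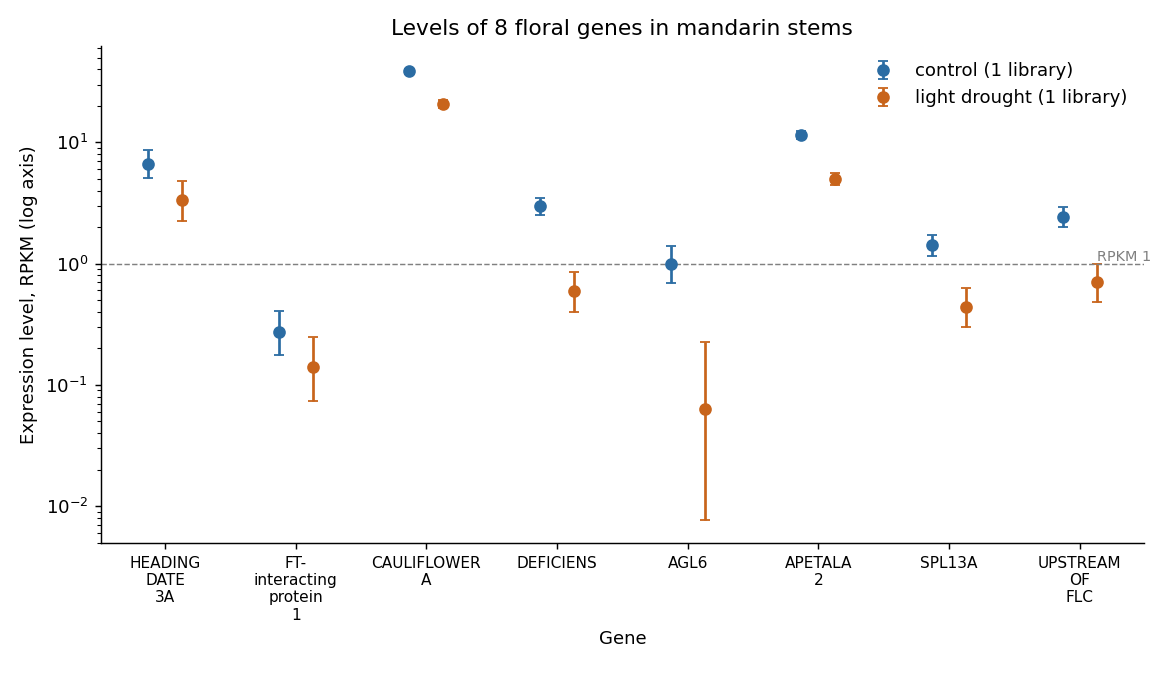
Level of each of the 8 genes in RPKM (log axis) in control and light drought stems (1 library each), with exact 95% Poisson intervals that cover counting error only. The control point lies above the light drought point for every gene, and AGL6 shows the widest interval, from 2 light drought reads.

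HEADING DATE 3A (Cs6g05520) is named for the rice florigen, a member of the FT family of mobile flowering signals. Its level was 6.69 RPKM in the control library (62 reads, 95% counting interval 5.13 to 8.58) and 3.35 RPKM in the light drought library (30 reads, 2.26 to 4.78). The control level was above that of 60.9% of all genes and the light drought level above that of 49.5%. The log2 ratio was -0.90 on the scale with the pseudocount and -0.998 without it, with a counting interval of -1.68 to -0.35. The drop was therefore short of the 2-fold line on both scales, narrowly so without the pseudocount, and its size is loosely fixed by so few reads.

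The gene model behind that value is short. It lies on chromosome 6 from 7014700 to 7015580, on the plus strand, with 3 exons of 11, 41 and 230 bases, in coordinates as the files give them (genome build not given in the sources used here). Its exons sum to 282 bases, and 1.71% of the gene models are shorter. The RPKM is scaled to those bases alone. The model may not cover the whole transcript, so this level compares less securely with those of other genes than its 2 values do with each other. It is also the only gene of the authors' table with the phosphatidylethanolamine-binding domain that defines the FT family, so no antagonist of the TERMINAL FLOWER type could be set beside it.

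FT-interacting protein 1 (Cs7g19030, chromosome 7, 15021362 to 15024029, a single exon) is named for the Arabidopsis membrane protein that helps FT leave phloem companion cells. It was the least expressed of the 8 genes in the control library, at 0.274 RPKM from 24 reads, and stood at 0.142 RPKM from 12 reads in the light drought library. Both levels lie under the minimum of 1 RPKM, so it was not among the genes kept. Its log2 RPKM ratio without a pseudocount was -0.95, with a counting interval of -2.08 to 0.10 that includes no difference. A relative with the same C2 and phosphoribosyltransferase C-terminal domains, QUIRKY (Cs5g26880), which acts in organ shape in Arabidopsis, was at 2.32 RPKM in the control and 1.54 RPKM in light drought. The log2 RPKM ratio of QUIRKY was -0.59, with a counting interval of -0.78 to -0.40.

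CAULIFLOWER A (Cs7g11810), a MADS-box gene close to the meristem identity gene APETALA1 and called a truncated factor in its description, was the most abundant of the 8 genes in both libraries. It stood at 38.7 RPKM in the control library (1552 reads) and at 20.8 RPKM in light drought (805 reads). Its log2 ratio was -0.88, short of 2-fold, and the log2 RPKM ratio had a narrow counting interval of -1.02 to -0.77. The gene lies on chromosome 7 from 7789177 to 7794785 with 8 merged exons. Of the summed RPKM of the 7 MADS-box genes in the authors' table of differential genes, CAULIFLOWER A made up 82.9% in the control and 77.1% in light drought.

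DEFICIENS (Cs1g24860, chromosome 1, 27100646 to 27103679) is named for the Antirrhinum MADS-box gene that gives petals and stamens their identity. Its level was 2.96 RPKM in the control library (155 reads) and 0.593 RPKM in light drought (30 reads), a 4.99-fold difference with a counting interval of 3.36 to 7.65. The log2 ratio with the pseudocount was -1.66, and 63 of the 15654 kept genes had a lower one. Here the pseudocount matters, because the light drought level is close to 0.5 RPKM. The authors' deposited table gives a log2 fold change of -2.32 with a false discovery rate of 8.6e-10.

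AGL6 (orange1.1t00275, on sequence not placed on a chromosome, 4679846 to 4684337) belongs to a MADS-box subfamily with roles in floral meristems and floral organs. It stood at 1.00 RPKM in the control library from 33 reads and at 0.0628 RPKM in light drought from 2 reads. The ratio of control to light drought was 15.9, with a counting interval of 4.08 to 137, so its size is barely fixed by the reads. On the scale with the pseudocount the log2 ratio was -1.42. It passed the expression minimum through its control level alone, as did DEFICIENS, SPL13A and UPSTREAM OF FLC, which favours a difference in this direction. The authors' deposited table gives it a log2 fold change of -3.91 with a false discovery rate of 1.57e-05.

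APETALA 2 (Cs6g04120, chromosome 6, 4752999 to 4755950) is named for the Arabidopsis factor that specifies outer floral organs and also delays flowering. It stood at 11.5 RPKM in the control library (744 reads) and at 5.03 RPKM in light drought (314 reads). With this many reads the log2 RPKM ratio of -1.20 had a counting interval of -1.39 to -1.003, and the log2 ratio with the pseudocount was -1.12. The nearest described gene to it over both libraries, after a hypothetical protein, was the receptor kinase-like ZAR1 (Cs2g13060), at a distance of 0.0571 log2 units. Over 2 libraries such closeness only says that the levels are alike. The authors' deposited table gives APETALA 2 a log2 fold change of -1.20 with a false discovery rate of 1.02e-05.

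SPL13A (orange1.1t02597, on unplaced sequence, 39651470 to 39655313, minus strand) is named for a factor of the age pathway, whose family is held down by miR156 in young plants. Its level was 1.42 RPKM in the control library (103 reads) and 0.441 RPKM in light drought (31 reads). The log2 ratio of -1.03 with the pseudocount was the closest to the 2-fold line among the 5 genes past it, and HEADING DATE 3A at -0.90 was the closest on the other side. Without a pseudocount the log2 RPKM ratio of SPL13A was -1.68, with a counting interval of -2.31 to -1.09. The authors' deposited table gives a log2 fold change of -1.68 with a false discovery rate of 9.66e-05.

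UPSTREAM OF FLC (Cs1g01250, chromosome 1, 357673 to 360007) takes its name from the Arabidopsis gene that lies next to the flowering repressor FLC, and it is not a homologue of FLC. It carries the DUF966 domain of the SOSEKI family, whose Arabidopsis proteins mark cell edges. Its level was 2.43 RPKM in the control library (114 reads) and 0.705 RPKM in light drought (32 reads). The log2 ratio was -1.28, and without a pseudocount -1.78 with a counting interval of -2.40 to -1.21. The authors' deposited table gives it a log2 fold change of -1.78 with a false discovery rate of 1.6e-05.

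**Figure D2:**
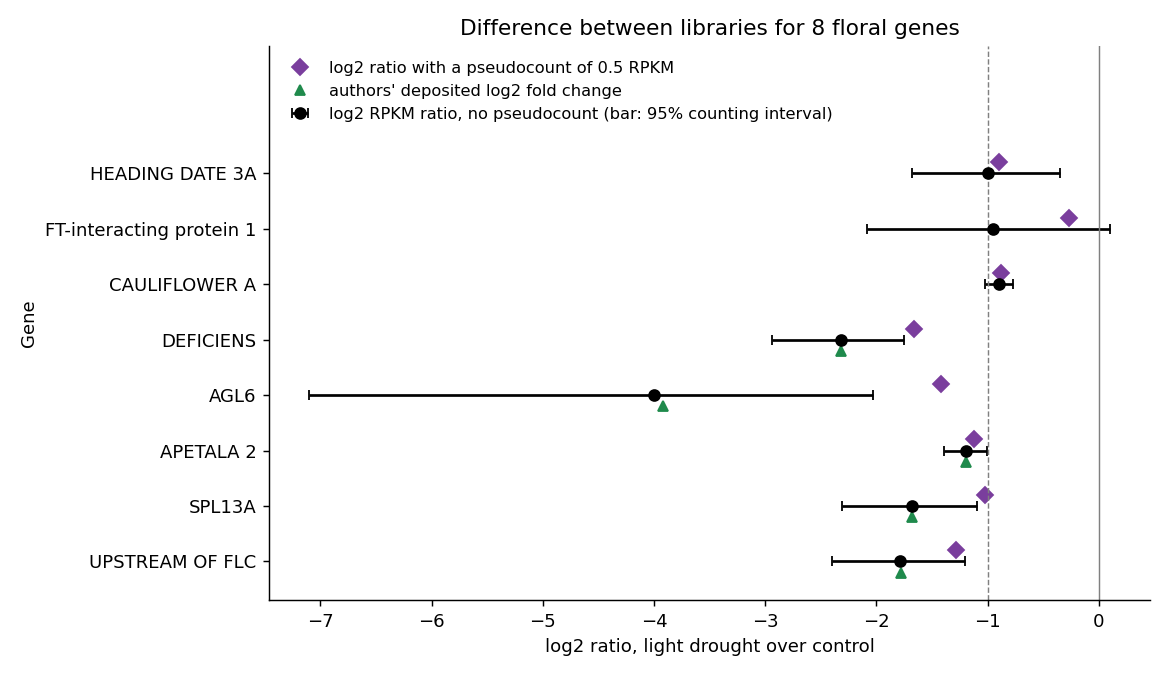
Log2 ratio of light drought over control for each of the 8 genes without a pseudocount (circles, with 95% counting intervals), with a pseudocount of 0.5 RPKM (diamonds) and as the authors' deposited log2 fold change (triangles, 5 genes). The counting interval reaches above 0 for FT-interacting protein 1 alone, and diamond and circle lie farthest apart for AGL6, at -1.42 and -4.00.

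The order of levels differed between the libraries in its lower part. In the control library it ran from CAULIFLOWER A through APETALA 2, HEADING DATE 3A, DEFICIENS, UPSTREAM OF FLC, SPL13A and AGL6 to FT-interacting protein 1. Neighbours whose counting intervals overlapped were DEFICIENS with UPSTREAM OF FLC and SPL13A with AGL6. In light drought the first 3 places were the same, though the intervals of APETALA 2 and HEADING DATE 3A now overlapped. The place of HEADING DATE 3A in both orders rests on its short gene model, which may be incomplete. UPSTREAM OF FLC, DEFICIENS and SPL13A followed with overlapping neighbours, and AGL6 came last after FT-interacting protein 1, with overlapping intervals.

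Sizes of the difference also varied among the genes. Of 28 pairs, 8 had log2 RPKM ratios whose counting intervals did not overlap. AGL6 and DEFICIENS each lay below HEADING DATE 3A, CAULIFLOWER A and APETALA 2. SPL13A and UPSTREAM OF FLC each lay below CAULIFLOWER A. The interval lay below 0 for 7 of the 8 genes. The same held for 25.0% of all kept genes. It also held for 46.8% of those with a description, which all come from the authors' table of differential genes. Deep libraries make intervals narrow.

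**Figure D3:**
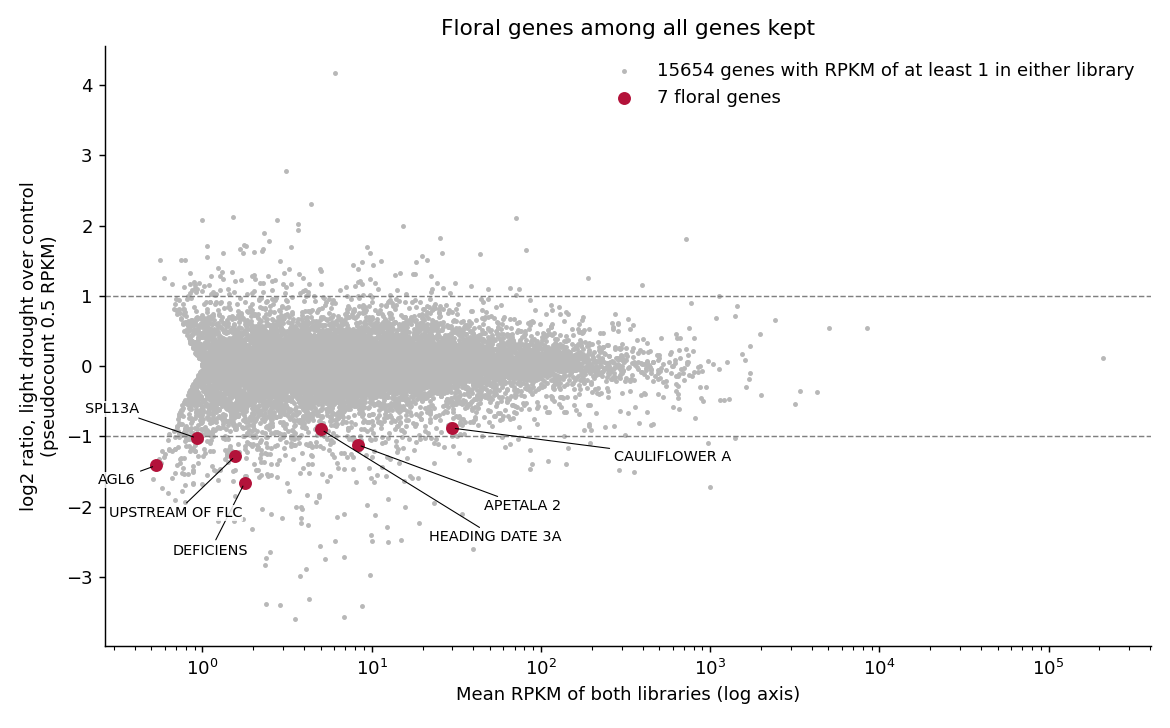
Log2 ratio of light drought over control with a pseudocount of 0.5 RPKM against mean RPKM (log axis) for the 15654 genes kept, with the 7 floral genes that met the expression minimum in red and the 2-fold lines dashed. The 7 genes lie along the lower edge of the cloud, from -0.88 for CAULIFLOWER A to -1.66 for DEFICIENS.

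The authors' deposited table gives a log2 fold change for 5 of the 8 genes, and all 5 are lower in light drought. Its p-values and false discovery rates rest on 1 library per treatment. They therefore cannot include variation between libraries of the same treatment. The same table calls 582 genes lower out of the 820 it gives a fold change, so most genes with a fold change share this direction. These 582 are 2.51% of all genes and 22.7% of the 2568 genes listed. HEADING DATE 3A, FT-interacting protein 1 and CAULIFLOWER A are listed in the authors' deposited table without a fold change or p-value. The smallest absolute log2 fold change in the authors' deposited table is 1.00, and the log2 RPKM ratios of those 3 genes, from -0.998 to -0.898, are smaller in size.

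What the 8 genes share in the deposited annotation is mainly DNA binding. A DNA binding term is given for 5 of them, CAULIFLOWER A, DEFICIENS, AGL6, APETALA 2 and SPL13A. The first 3 of these carry both the MADS (SRF-type) domain and the K-box, the pairing region of plant MADS-box proteins of the floral type. A flowering term is given for HEADING DATE 3A alone of the 8. No gene of the 8 overlapped another gene model, and none shared its RefSeq record with another gene of the table.

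Family relatives did not all follow the same direction. The authors' table of differential genes holds 7 genes with a MADS domain. Of the 5 that also carry the K-box, 4 had ratios below 0, namely AGL6, DEFICIENS, CAULIFLOWER A and MADS-box transcription factor 23 (Cs8g02950). The last stood at 0.760 RPKM in control and 0.444 RPKM in light drought, under the expression minimum, with a counting interval of the log2 RPKM ratio of -1.88 to 0.27 that includes no difference. The K-box gene with a ratio above 0 was AGL15 (Cs7g02340), a MADS-box gene known from Arabidopsis embryos that delays flowering when overexpressed, at 2.61 RPKM in control and 3.21 RPKM in light drought. The 2 genes without a K-box were higher in light drought, AGL28 (Cs2g02950) at 1.12 against 0.486 RPKM and the undescribed Cs6g13550 at 0.738 against 0.183 RPKM, both under 2-fold on the scale with the pseudocount (log2 ratios 0.72 and 0.86). The authors' deposited table gives them log2 fold changes of 1.20 and 1.99, with false discovery rates of 0.112 and 0.00846.

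SPL8 (Cs1g03630), an SPL factor of anther development in Arabidopsis, stood at 0.853 RPKM in the control from 64 reads and at 0.0552 RPKM in light drought from 4 reads. Both levels are under the expression minimum, and the log2 RPKM ratio was -3.95 with a counting interval of -5.87 to -2.52. Another gene with the SBP domain, Cs5g12260, which has no description, went the other way, from 1.02 to 1.65 RPKM. The second DUF966 gene, Cs8g17930, was lower like UPSTREAM OF FLC, at 1.73 RPKM against 3.77 RPKM, with a log2 ratio of -0.94. APETALA 2 belongs to the large AP2/ERF family, of which the authors' table lists 20 genes, 19 of them kept. Of these 19, APETALA 2 included, 16 had ratios below 0, 9 were at least 2-fold lower and 0 at least 2-fold higher, with a median of -0.92. Among kept genes with a description, 55.6% had ratios below 0, 14.9% were at least 2-fold lower and 5.39% higher. Over all kept genes the shares were 49.6%, 2.12% and 0.882%. The family was taken by domain, so some of the 19 carry no description and lie outside the first of these backgrounds. AP2/ERF genes outside the authors' table were not counted.

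**Figure D4:**
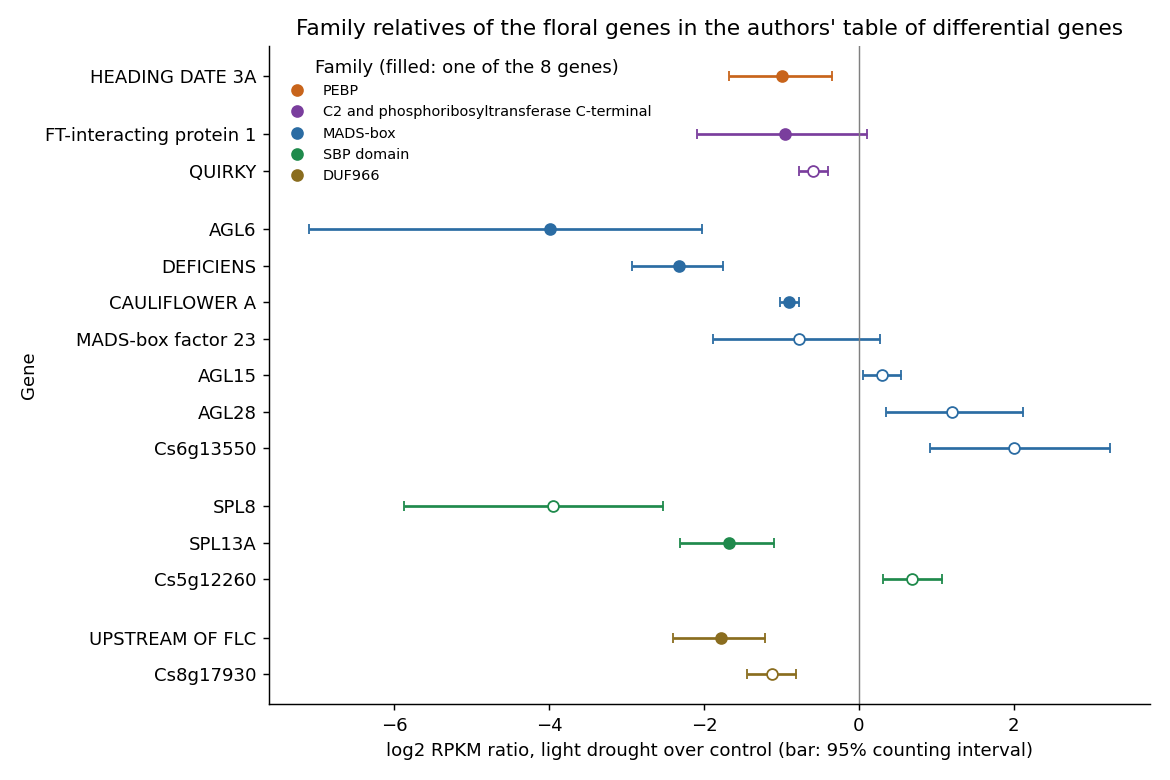
Log2 RPKM ratio of light drought over control, with 95% counting intervals, for the genes of the authors' table of differential genes that share a family domain with HEADING DATE 3A, FT-interacting protein 1, the MADS-box genes, SPL13A or UPSTREAM OF FLC (the AP2/ERF family is not drawn); filled points are among the 8 genes. Points lie on both sides of 0 in the MADS-box and SBP families, from -4.00 for AGL6 to 2.01 for Cs6g13550.

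Lists of flowering terms matched to gene descriptions took 17 genes, 9 of them outside the 8, and 6 of those 9 met the expression minimum. Among these 6, 2 were at least 2-fold lower and 1 at least 2-fold higher, with a median log2 ratio of 0.010, beside 14.9% lower and 5.39% higher among kept genes with a description. The lower genes were ANT (Cs1g21310), an AP2-like regulator of organ growth, at 0.577 RPKM against 3.91 RPKM, and a VRN1-type gene (Cs5g28570) at 3.64 RPKM against 8.23 RPKM. The higher one was another VRN1-type gene (Cs5g28670), at 3.81 RPKM against 1.37 RPKM. SODIUM POTASSIUM ROOT DEFECTIVE 2 (Cs6g05460), matched because an Arabidopsis relative helps FT move through the phloem, was at 0.909 RPKM against 1.16 RPKM, with a counting interval of the log2 RPKM ratio of -0.995 to 0.29. A truncated FRIGIDA-like gene (Cs3g12120), under the minimum, was at 0.852 RPKM against 0.502 RPKM.

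Genes were also matched by their descriptions to cell types. Descriptions were available only for genes of the authors' table of differential genes, so these lists do not hold all genes of a type. Differences between the libraries may be partly built into them by that choice. Of all kept genes with a description, 55.6% had ratios below 0. All 21 described photosystem and chlorophyll-binding genes had ratios above 0, with a summed level of 504 RPKM in control and 737 RPKM in light drought. All 3 homeobox genes matched to the shoot meristem list had ratios below 0, with a summed level of 19.7 RPKM in control and 10.9 RPKM in light drought. One of them, WUSCHEL-related homeobox 4, is known from the vascular cambium, and another, knotted-1-like 3, is not a meristem marker and had a counting interval that includes no difference. The 7 genes matched to xylem and secondary wall, 6 fasciclin-like and 1 an AUGMIN subunit that is no wall gene, summed to 34.2 RPKM and 19.6 RPKM. Both phloem genes, described as SIEVE ELEMENT OCCLUSION B, summed to 2.16 RPKM and 1.85 RPKM and went in different directions. The 4 genes matched to floral organ tissue, AGL6 and other text matches among them, summed to 11.1 RPKM and 7.31 RPKM and split evenly in direction. AGL6, AGL15 and AGL28 were taken by the word agamous in their descriptions alone. The list words did not take DEFICIENS, which was lower in light drought, so the split does not describe floral organ genes in general. Of that list, Cs1g17860 was at 6.99 RPKM in control and 2.91 RPKM in light drought, while AGL15 and AGL28 were higher in light drought. Cs1g17860 is described as pollen-specific and extensin-like, but its domain annotation is a plant protein of unknown function (DUF761). No gene of these lists was at 0 in either library, and the part of these shifts in the lower floral genes was not tested.

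Gene models around HEADING DATE 3A were examined within 100 kb of its start, a window chosen after its values were seen. The model before it, Cs6g05515, had 9 control reads and 1 light drought read, and the one before that, Cs6g05510, was at 2.72 RPKM in control and 1.20 RPKM in light drought. The model after it, Cs6g05560, which carries domains of unknown function, was at 1.54 RPKM in control (195 reads) and 0.228 RPKM in light drought (28 reads). These 4 adjacent models, HEADING DATE 3A included, were all lower in light drought, a direction shared by 49.6% of all kept genes. Farther out the pattern was mixed. Cs6g05570 stood at 22.65 RPKM in control and 21.95 RPKM in light drought, and Cs6g05580 at 1.79 RPKM and 0.211 RPKM. Cs6g05590, at 11.4 RPKM and 12.0 RPKM, and Cs6g05615, at 11.7 RPKM and 13.5 RPKM, were higher in light drought. Before the 4 models, Cs6g05490 and Cs6g05500 had 0 control reads and 2 and 1 light drought reads. Of 9 models in the window that met the expression minimum, 2 were at least 2-fold lower, beside 2.12% of all kept genes.

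**Figure D5:**
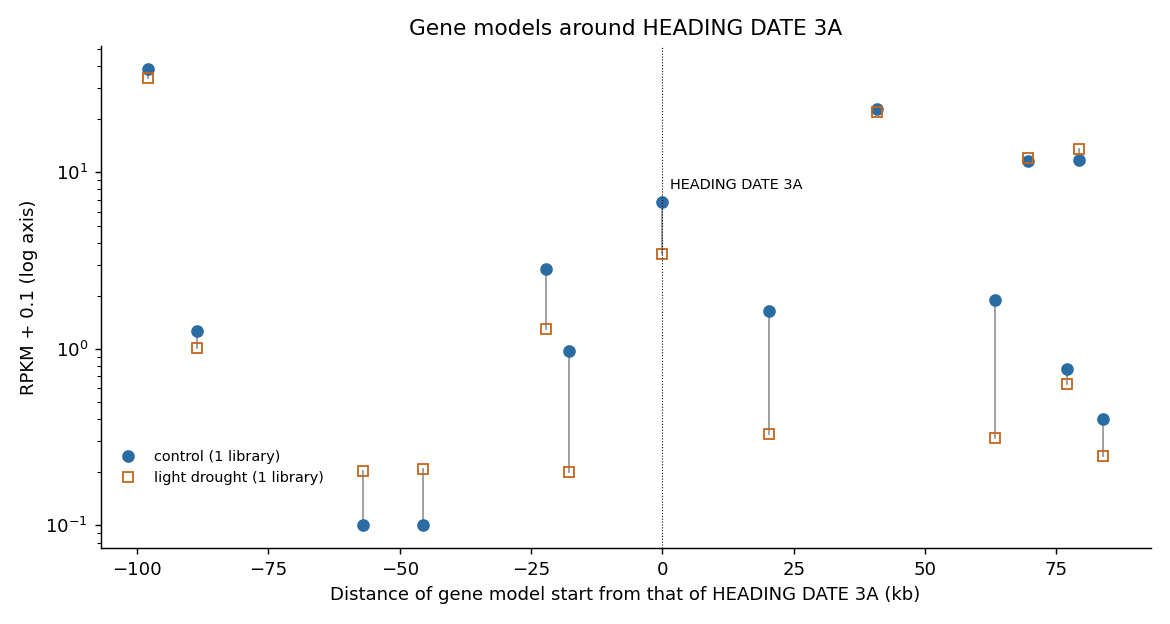
Level of the 14 gene models whose start lies within 100 kb of that of HEADING DATE 3A, as RPKM + 0.1 on a log axis against distance in kb, in control stems (filled circles) and light drought stems (open squares). HEADING DATE 3A and the 3 models nearest to it have lower squares than circles, and for the models above 10 RPKM the log2 RPKM ratio is between -0.17 and 0.21.

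Neighbours of DEFICIENS and APETALA 2 with more than 100 reads stood near their control level. On either side of DEFICIENS, Cs1g24850, an aldehyde dehydrogenase, had a log2 ratio of -0.15 and Cs1g24870 one of 0.0016. Next to APETALA 2, Cs6g04130 was at 17.5 RPKM in light drought and 18.5 RPKM in control. A different pattern lay 264 bases beyond CAULIFLOWER A on the opposite strand, where Cs7g11820 had 0 reads in the control library and 18 in light drought. Its level in light drought was 0.535 RPKM, and the counting interval of its log2 RPKM ratio began at 2.19. The use of strand in counting was not given in the sources used here, so reads of these converging genes may not have been kept apart.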

How the data were processed

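Per the labels' protocols, TRIzol extraction gave the RNA, of which 2 µg per library went into stranded mRNA library preparation. The submitters' processing notes list Trimmomatic 0.36. Aligner, counting tool, genome build and use of strand were not given in the sources used here. The authors deposited RPKM for 23159 genes in both libraries. Multiplied by exon length, 100% of the values above 0 came out as whole reads to within 0.01 read, with totals of 32856618 reads (control) and 31760704 reads (light drought). The authors deposited a log2 fold change, with its p-value and false discovery rate, for 820 of the 2568 genes in a table of differential genes, 1682 of which carry a RefSeq description. Why the other 1748 count as differential was not given in the sources used here.

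From these values log2 ratios with a pseudocount of 0.5 RPKM were computed, and genes reaching 1 RPKM in at least one of the libraries were kept. Exact 95% intervals (Poisson for levels, Clopper-Pearson for ratios) used the recovered reads. PCR copies cannot be told from separate molecules in these reads, so intervals cover counting error only. With 1 library per treatment no test of the conditions was made. The 8 genes and the lists were chosen with earlier results of these data known. All 8 were named whatever their value, with up to 4 genes per flowering list by absolute log2 ratio, the nearest genes by level and adjacent gene models. Relatives by InterPro family and other gene models near HEADING DATE 3A were named after their values were seen. The procedure was tested on simulated data. Alternatives were other pseudocounts, minimums, scalings and thresholds. A reference table of Citrus unshiu held 0 of the identifiers, and no sequence is shown. The software was matplotlib 3.10.9, pandas 2.3.3, scipy 1.17.1 and numpy 2.4.6 under Python 3.11.15.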

Additional observations from a re-analysis of the deposited data

How the results depend on the processing

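All 8 genes were lower in light drought under every pseudocount, minimum and scaling run in which they were kept. A pseudocount shared by both libraries, or a minimum, cannot change the sign of a ratio, so only the scalings could have. They put the median log2 ratio of all kept genes at -0.041 (equal sums) and -0.012 (median ratio scaling), beside 0.0024 in the Results. Moves of single-gene values from the ratio with the Results pseudocount were set against the distance from the middle of the counting interval to its end. Of 51 recomputed values 48 moved by less than that distance. Values under another minimum, or none, are among these 48 and equal the Results value by construction. The 3 that moved more were AGL6 (-4.00), DEFICIENS (-2.32) and SPL13A (-1.68) without a pseudocount. The intervals belong to the ratios without a pseudocount, so they hold these 3 values. With the Results pseudocount the same genes lay outside them, AGL6 at -1.42 (-7.10 to -2.03), DEFICIENS at -1.66 (-2.94 to -1.75) and SPL13A at -1.03 (-2.31 to -1.09). The setting without a pseudocount was added after seeing the data, as were the InterPro families, counted without AP2/ERF genes other than APETALA 2. The 5 genes at least 2-fold lower became 3 with a pseudocount of 1 RPKM, 1 with a minimum of 5 RPKM, where 3 of the 8 were kept, and 0 at 4-fold. For the wider flowering lists, 7 lower genes became 4, 2 and 1 under the same settings, and the 1 higher gene became 2 with a pseudocount of 0.1 RPKM, at 1.5-fold or with no pseudocount, and 0 with a minimum of 5 RPKM, at 4-fold or with InterPro families. Of all kept genes, 332 lower and 138 higher became 204 and 88 with a pseudocount of 1 RPKM, 159 and 68 with a minimum of 5 RPKM, 965 and 631 at 1.5-fold, 44 and 8 at 4-fold, and 506 and 241 with no pseudocount. A pseudocount of 0.1 RPKM gave 208 higher genes and equal sums gave 513 lower ones. The minimum of 5 RPKM keeps fewer genes and the other thresholds change the line itself. A larger pseudocount shrinks the ratios of low genes and a smaller one widens them. Equal sums kept 16563 genes rather than 15654 and also shifted the median, and how far each made the 513 lower genes was not tested. No paired analysis was possible because both treatments have a lone library, and none could be left out. Depth limits AGL6 (2 light drought reads) and FT-interacting protein 1 (12) most.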
